A study of Mus musculus with 6 samples.

Results

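The transcription factors that lay out the embryonic body outside the Hox clusters were followed here in mouse embryonic fibroblasts (MEFs) with and without a full dose of Nipbl. They were taken from the gene tables by name and strand, as the minus-strand genes of families such as Sox, Pax, Tbx, Fox, Gata, Meis, Msx and Runx. This gave 111 genes in 29 families, out of 38483 genes in the files and 19269 on the minus strand. A further 104 genes of the plus strand match the same names, but every plus-strand gene is listed at 0 in all 6 cultures, so nothing can be said here about Sox9, Twist1, Tbx5, Hand2 or Prrx2.

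The study set 3 cultures of MEFs from wild-type embryos (WT) against 3 from Nipbl-haploinsufficient embryos (Nipbl+/-), which carry a heterozygous knockout of the cohesin loader Nipbl and are a mouse model of Cornelia de Lange syndrome. Both genotypes were on the CD1 strain and were sequenced at passage 3 after depletion of rRNA. By the study's methods, mid-gestation embryos came from a single pregnant mouse, and limbs, brain and internal organs were removed before the rest was minced and plated. The labels do not say which embryo or sex each culture came from, and p-values measure the spread between these 6 cultures. MEFs are a mixed population, and in such bulk RNA fewer cells of a type and less RNA per cell cannot be told apart.

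Developmental transcription factors bind DNA through a homeodomain, T-box, forkhead, HMG box, zinc finger or similar domain, and their combinations mark where in the embryo a cell came from and what it may become. Connective tissue fibroblasts keep part of this positional program in culture. Heterozygous loss of NIPBL in people changes growth, the face, the limbs and the heart, which are structures that many of these factors pattern.

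Between 45942 and 57004 reads per culture fell on the 111 genes, 0.206% to 0.226% of all counts. Of these genes, 94 had a count in any culture, 75 had counts in all of them, and 66 passed edgeR's filter on low counts and were tested. The other 45 comprise 17 listed at 0 in all cultures and 28 with few reads, the largest being 50 reads of Lhx8 in a WT culture. Total counts lay between 20307454 and 25990783 per culture. Nipbl itself had 128, 145 and 135 CPM (counts scaled to library size after TMM normalization) in WT and 101, 101 and 100.3 CPM in Nipbl+/- cultures, a difference of -0.43 ± 0.06 in log2 fold change (log2FC, Nipbl+/- over WT, ± its standard error), with an adjusted p-value of 0.0213 by the quasi-likelihood test of edgeR. The adjusted p-value of Nipbl was 0.0755 without WT replicate 1, 0.0864 without Nipbl+/- replicate 1 and 0.0772 without Nipbl+/- replicate 2. Of 25 fibroblast marker genes, 9 lie on the minus strand and all were tested, with Fn1 and Sparc among them. Their summed level was 34229 to 40742 CPM in WT and 34339 to 38608 CPM in Nipbl+/- cultures, and 0 of them passed the threshold in edgeR's quasi-likelihood test, 3 of them having an unadjusted p-value under 0.05.

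Levels of different genes are compared as RPKM, the authors' count scaled by gene length and sequencing depth. Tcf12, a broadly expressed basic helix-loop-helix factor, stood highest at 38.5 ± 2.12 RPKM in WT and 42.8 ± 1.30 RPKM in Nipbl+/- MEFs (SD, n = 3 each). Sox4, of the SoxC group, followed at 34.8 ± 2.52 and 36.6 ± 3.61 RPKM, and its SD range overlapped with that of Tcf12 in WT. Then came Prrx1, a homeodomain factor of limb and facial mesenchyme, at 27.8 ± 1.65 and 23.3 ± 1.74 RPKM, and Mef2a at 23.7 ± 1.03 and 23.2 ± 1.99 RPKM. Prrx1 and Mef2a did not differ beyond their spread in Nipbl+/- MEFs. The next 6 in order were Foxs1, Nr2f6, Foxp1, Klf4, Foxo3 and Klf13, between 11.2 and 16.8 RPKM on average over the 6 cultures. In all, 12 of the 111 genes averaged at least 10 RPKM, 43 at least 1 RPKM and 43 under 0.1 RPKM.

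Among the highest members of the other families were Shox2 (8.82 RPKM over the 6 cultures), Runx1 (7.66), Irx1 (7.64), Tbx18 (7.28), Msx2 (5.72), Meis2 (5.60), Sall2 (4.41), Pitx1 (3.72), Six4 (3.49) and Lhx9 (3.22 RPKM). Below them stood Alx1 (2.68 RPKM), Zic1 (2.29), Ebf3 (2.24), Dlx2 (1.42), Nkx2-1 (1.16), Tfap2a (0.895), Gata3 (0.730), Lmx1b (0.683), Pax3 (0.321) and Barx2 (0.108 RPKM), and Hand1 was listed at 0. The median of the 66 tested factors was 2.94 RPKM, below the 7.89 RPKM of all 9061 tested genes.

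**Figure D1:**
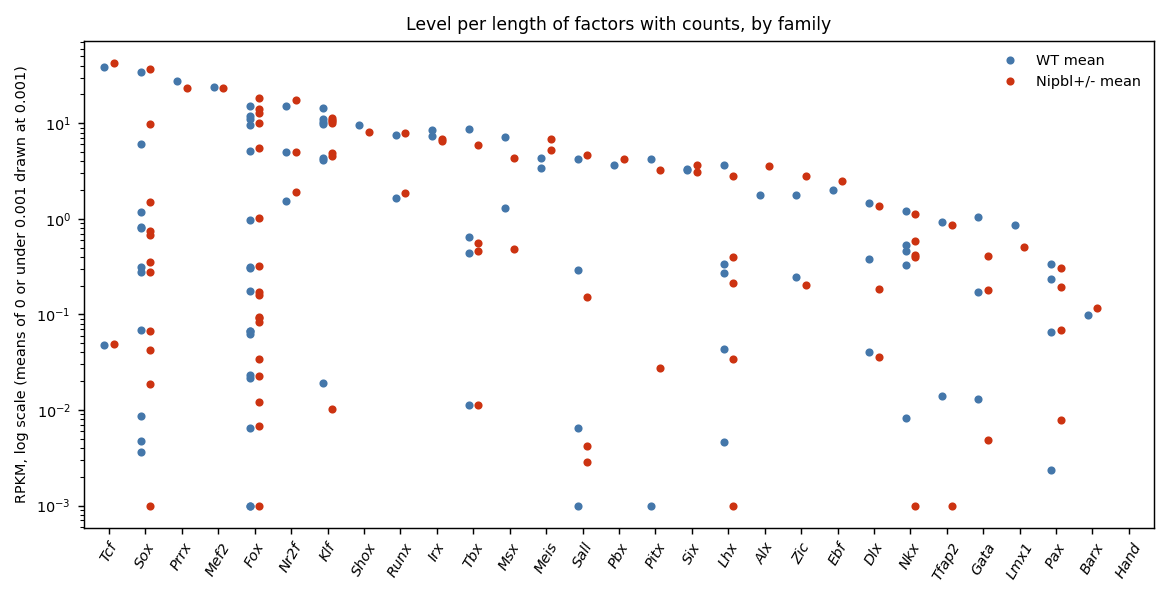
Mean RPKM of 92 factors that had any count (vertical axis, log scale), by family (horizontal axis, ordered by the highest member); blue points are WT means and red points Nipbl+/- means of 3 cultures. Sox and Fox members spread over several powers of 10, while Meis and Irx members lie within 1 power of 10; Hand has no point because Hand1 was at 0.

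The genotypes were compared for all 9061 tested genes at once, and the question here was which of the developmental factors differed. At an adjusted p-value under 0.05, Meis1, Meis2 and Alx1 rose and Gata3 fell in Nipbl+/- MEFs, by the quasi-likelihood test of edgeR. These are 4 of 66 tested factors (6.06%), where 1.95% of all tested genes passed, 1.04% higher and 0.916% lower. Of the tested factors, 33 had positive and 33 negative log2FC, and the median of -0.01 was the median of all tested genes, -0.01, as well. A log2 fold change of at least 0.5 in size was found for 14 of the 66 factors (21.2%) and for 8.45% of all tested genes. Low counts go with wide errors, and the median standard error of the log2 fold change was 0.162 for the factors and 0.101 for all tested genes; what part of the difference in size comes from this was not tested. Side by side with other transcription factors of the minus strand, 7 of 11 tested HoxA genes and 1 of 158 numbered Zfp genes passed the threshold.

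**Figure D2:**
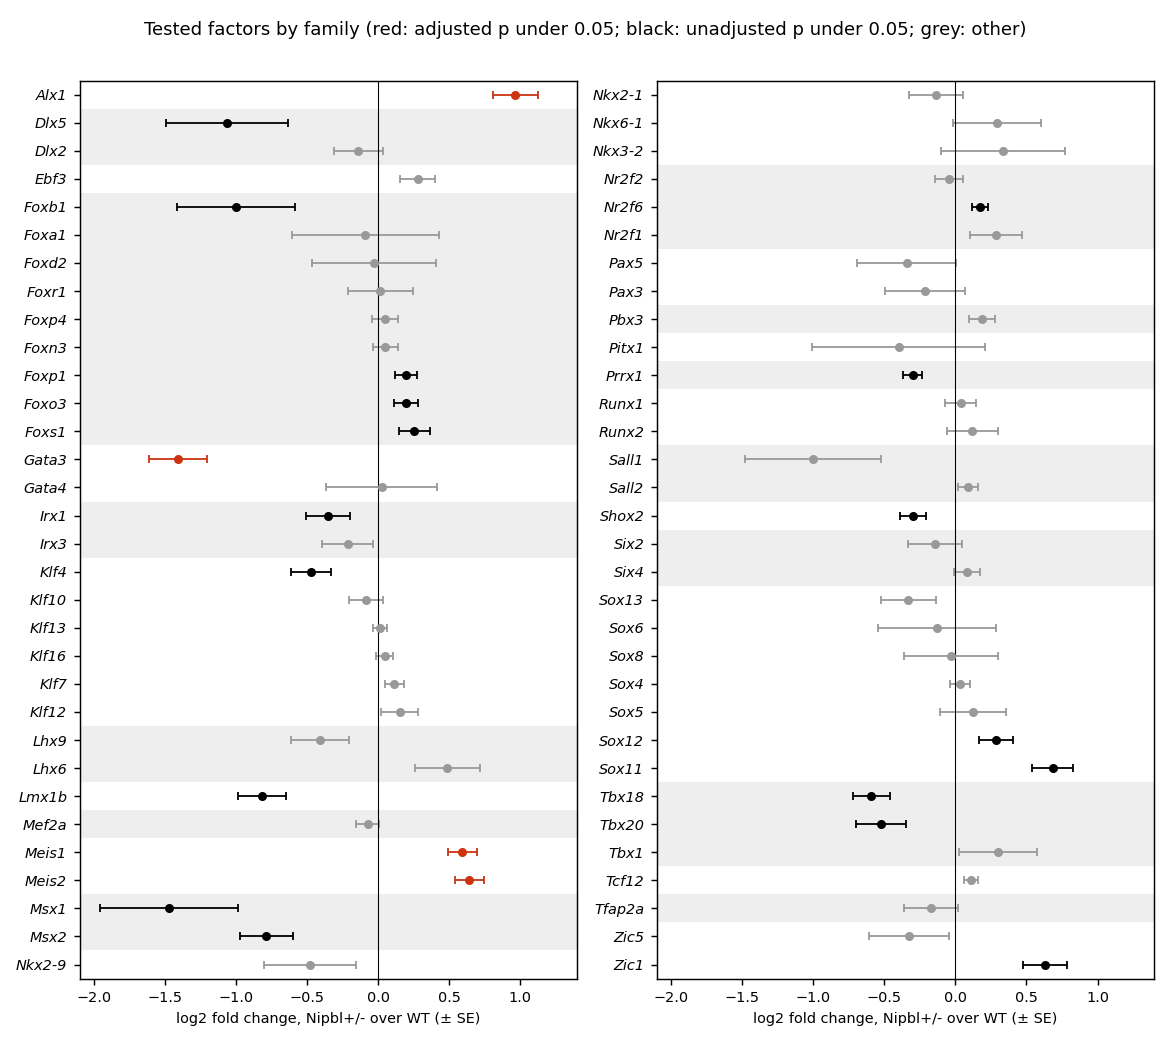
Log2 fold change of 64 of the 66 tested factors, Nipbl+/- over WT (horizontal axis), with its standard error as a bar, ordered by family in shaded bands. Red marks an adjusted p-value under 0.05, black an unadjusted p-value under 0.05 and grey the rest. The 4 red points are Meis1, Meis2 and Alx1 to the right and Gata3 to the left, and 30 of the factors drawn lie within 0.2 of 0.

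The Meis genes encode TALE homeodomain proteins that bind DNA with Pbx and Hox partners and mark the proximal part of the limb bud. Meis1 had 31.7, 39.0 and 30.7 CPM in the WT cultures and 46.0, 54.0 and 52.9 CPM in the Nipbl+/- cultures. All 3 Nipbl+/- values were above all 3 WT values. The log2FC was 0.59 ± 0.10 (edgeR adjusted p = 0.0330), from 33.8 ± 4.51 to 50.9 ± 4.31 CPM (SD, n = 3 each).

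Its paralog Meis2 had 51.4, 50.9 and 59.5 CPM in WT and 73.4, 83.8 and 95.3 CPM in Nipbl+/- cultures. Again the genotypes did not overlap, and the highest WT culture was well below the lowest Nipbl+/- culture. The mean went from 54.0 ± 4.84 to 84.2 ± 11.0 CPM, a log2FC of 0.64 ± 0.10 (edgeR adjusted p = 0.0252). Meis3, the remaining family member, is on the plus strand.

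Alx1, a paired-type homeodomain factor of the facial mesenchyme and neural crest, had the largest increase among the tested factors. It measured 4.54, 5.79 and 5.43 CPM in WT and 8.48, 11.5 and 10.7 CPM in Nipbl+/- cultures. The groups stood apart, at 5.25 ± 0.643 and 10.2 ± 1.58 CPM (SD, n = 3 each), with a log2FC of 0.96 ± 0.16 (edgeR adjusted p = 0.0288). Alx4 is on the plus strand.

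Gata3, a zinc finger factor of T cells, sympathetic neurons, the inner ear and the kidney, fell. It had 4.95, 4.05 and 4.22 CPM in WT and 1.26, 1.87 and 1.81 CPM in Nipbl+/- cultures, that is 91 to 109 reads against 28 to 49 reads. No Nipbl+/- culture came near the WT range. The log2FC was -1.41 ± 0.20 (edgeR adjusted p = 0.0232), or 2.66-fold lower. Gata4, the other tested member, had 0.401 to 0.882 CPM in WT and 0.573 to 0.992 CPM in Nipbl+/- cultures.

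Neither the library kit's name nor the methods state that strand was kept, and the counting is not stated to use it. Gata3 and Meis1 each overlap 2 annotated plus-strand genes, and reads of such partners cannot be told apart from theirs. Meis2 and Alx1 overlap none. Of the 66 tested factors, 23 overlap a plus-strand gene.

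The 4 calls depended on single cultures. None of the tested factors passed without WT replicate 1 (0 of 67), without Nipbl+/- replicate 1 (0 of 68) or without Nipbl+/- replicate 2 (0 of 68), and so few genes passed then that 0.0651%, 0.0325% and 0.12% of all tested genes did. In those fits the adjusted p-values of the 4 lay between 0.0742 and 0.143 in edgeR's quasi-likelihood test. Without WT replicate 3, Gata3 and Meis2 passed (2.99% of the factors and 0.704% of all tested genes). Without Nipbl+/- replicate 3, Gata3, Klf4 and Sox11 did (4.55% and 0.726%). Without WT replicate 2, 9 factors passed, 4 higher and 5 lower (13.2% and 2.91%). Across these 6 fits the log2FC ranged from 0.53 to 0.71 for Meis1, from 0.54 to 0.73 for Meis2, from 0.87 to 1.08 for Alx1 and from -1.52 to -1.26 for Gata3.

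Start regions of the called factors Meis1 and Meis2, which rose, and Gata3, which fell, are printed. Alx1, which also rose, had no matched RefSeq window, so the factors that rose are covered only in part. Each runs from 250 bases before to 50 bases after a RefSeq transcription start in GRCm38.p6, the assembly of mm10, on the minus strand and 5′ to 3′. Capitals mark the CCAAT box (CCAAT or ATTGG) and the GC box (GGGCGG or CCGCCC), which do not overlap each other here.
Meis1 promoter, chr11:19018920-19019219: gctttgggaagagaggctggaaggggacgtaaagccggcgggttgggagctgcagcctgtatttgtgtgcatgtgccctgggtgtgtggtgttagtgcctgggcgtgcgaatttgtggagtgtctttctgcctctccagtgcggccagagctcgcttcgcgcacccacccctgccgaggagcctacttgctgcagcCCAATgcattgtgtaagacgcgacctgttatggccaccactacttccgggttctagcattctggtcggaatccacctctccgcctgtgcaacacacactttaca
Meis2 promoter, chr2:116064570-116064869: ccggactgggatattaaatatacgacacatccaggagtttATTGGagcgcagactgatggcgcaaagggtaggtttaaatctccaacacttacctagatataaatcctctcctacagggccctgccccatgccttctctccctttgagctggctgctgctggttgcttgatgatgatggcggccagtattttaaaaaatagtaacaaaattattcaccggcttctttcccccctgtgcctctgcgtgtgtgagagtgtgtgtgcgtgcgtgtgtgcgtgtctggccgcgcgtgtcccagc
Gata3 promoter, chr2:9878551-9878850: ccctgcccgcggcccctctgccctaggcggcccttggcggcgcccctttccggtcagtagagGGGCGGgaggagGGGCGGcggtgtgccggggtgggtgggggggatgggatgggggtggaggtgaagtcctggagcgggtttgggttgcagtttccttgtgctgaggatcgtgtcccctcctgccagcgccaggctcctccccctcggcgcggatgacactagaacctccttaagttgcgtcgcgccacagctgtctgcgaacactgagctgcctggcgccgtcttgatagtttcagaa
The Meis1 start lies 12 bases from the gene end given in the files, the Meis2 start 1219 bases and the Gata3 start 11433 bases. Both Meis windows hold 1 CCAAT box and no GC box, and the Gata3 window holds 2 GC boxes and no CCAAT box. Their GC content was 58.3%, 51.0% and 67.3%, with 15, 13 and 22 CpG dinucleotides. RefSeq windows were matched for 84 of the 111 factors. A GC box was present in 64.3% of these and in 35.7% of all 32851 windows, and a CCAAT box in 45.2% and 37.4%. The median GC content was 61.5% for the factors and 52.7% for all windows. The 53 windows of tested factors and the 31 of untested factors had a median GC content of 61.0% and 62.0%. The core TGACAG, or CTGTCA on the other strand, to which MEIS proteins bind was in 13.1% of the factors' windows and in 19.2% of all windows. These matches are descriptions of the sequence only.

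With the 4 called genes included, 22 of the 66 factors had an unadjusted p-value under 0.05 (16.9% of all tested genes did). The genotypes did not overlap for 20 factors (30.3%; 22.8% of all tested genes), of which 11 were higher and 9 lower in Nipbl+/- MEFs, against 12.0% and 10.8% of all tested genes. Both criteria were met by 16 factors, 7 higher and 9 lower. With 3 cultures against 3, each such factor has p = 0.1 in an exact two-sided permutation test, the smallest value possible.

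**Figure D3:**
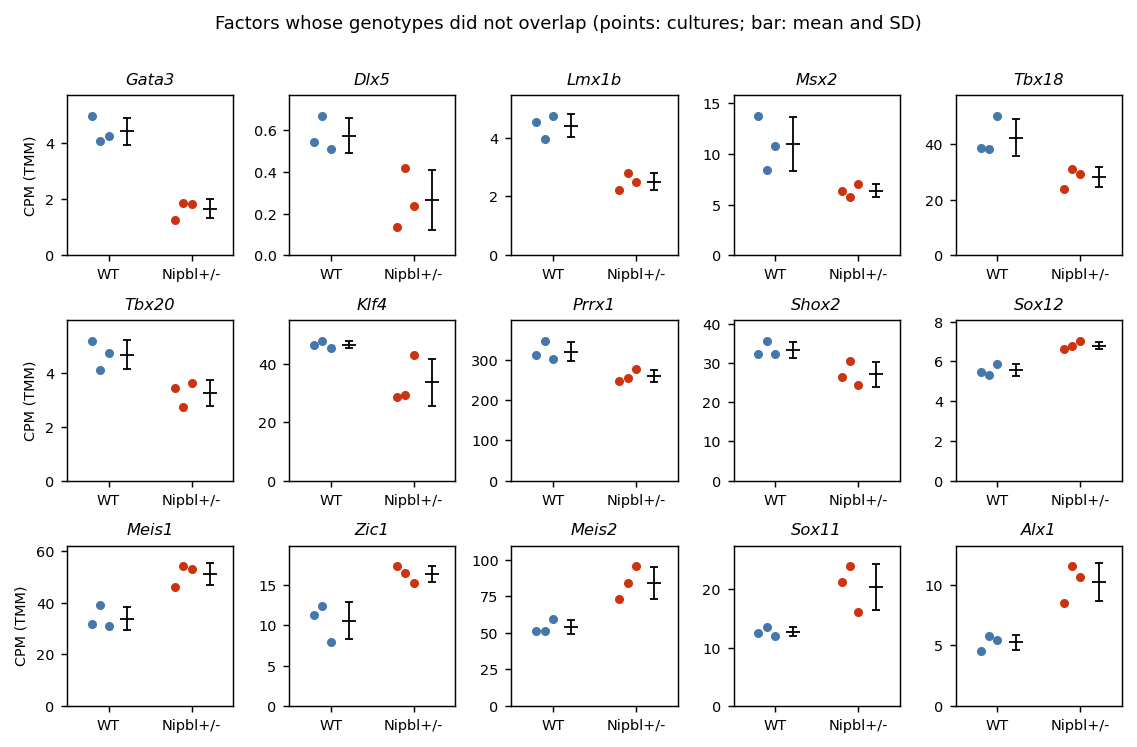
CPM after TMM normalization (vertical axis of each panel, from 0) of the 15 factors with the largest log2 fold change among those with an unadjusted p-value under 0.05 and no overlap between genotypes, in order of log2 fold change from Gata3 to Alx1. Blue points are the 3 WT cultures, red points the 3 Nipbl+/- cultures, and the black bar beside each group is the mean and SD. In every panel the red points lie all above or all below the blue points, as the choice of these genes requires; the gap is wide for Gata3 and Meis2 and narrow for Shox2 and Klf4.

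Among factors of limb and body wall position, Meis1 and Meis2 passed the threshold, and Lmx1b came closest of those that did not. Lmx1b specifies the dorsal side of the limb, and measured 4.54, 3.96 and 4.73 CPM in WT and 2.21, 2.79 and 2.48 CPM in Nipbl+/- cultures, with a log2FC of -0.82 ± 0.17 (edgeR adjusted p = 0.0511). DESeq2 gave Lmx1b an adjusted p-value of 0.0252, and the exact test of edgeR gave 0.00173. Tbx18, a T-box factor of somites, limb mesenchyme and the epicardium, had 38.8, 38.3 and 50.2 CPM in WT and 24.1, 31.1 and 29.3 CPM in Nipbl+/- cultures (log2FC -0.59 ± 0.13, edgeR adjusted p = 0.0614). Both had lower values in all 3 Nipbl+/- cultures. Shox2, which is needed for growth of the proximal limb bones, had 32.2, 35.5 and 32.2 CPM against 26.3, 30.5 and 24.4 CPM (log2FC -0.30, adjusted p = 0.153). Shox2 overlaps the plus-strand gene Rsrc1, and Tbx18 also overlaps 1 annotated plus-strand gene.

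The limb and body wall list holds 30 genes, 15 of them on the minus strand and 13 tested. Of these 13, 2 rose (Meis1 and Meis2) and 0 fell, together 15.4% against 1.95% of all tested genes. A log2 fold change above 0 was found for 4 of the 13 and for 4386 of all 9061 tested genes. The list median was -0.22, against -0.01 for all tested genes. The Meis partner Pbx3 had a log2FC of 0.19 (edgeR adjusted p = 0.342), with the genotypes overlapping. Nr2f1 and Nr2f2, orphan nuclear receptors, had 0.28 and -0.05.

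Both tested Msx genes, homeodomain factors at sites of BMP signalling in limb tips, skull and face, had lower means in Nipbl+/- MEFs. Msx2 had 13.7, 8.41 and 10.8 CPM in WT and 6.36, 5.73 and 7.02 CPM in Nipbl+/- cultures (log2FC -0.79 ± 0.19, edgeR adjusted p = 0.0735), without overlap. Msx1 had 6.31, 1.34 and 5.15 CPM in WT and 1.49, 1.57 and 1.53 CPM in Nipbl+/- cultures. Its most negative log2 fold change of all tested factors, -1.47 ± 0.49 (edgeR adjusted p = 0.171), went with an overlap of the groups, because WT replicate 2 lay below every Nipbl+/- culture. Without WT replicate 2, Msx1 reached a log2FC of -1.90, with an edgeR adjusted p-value of 0.00786.

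Prrx1, the most abundant of the craniofacial and limb mesenchyme factors, had 313, 347 and 303 CPM in WT and 249, 256 and 278 CPM in Nipbl+/- cultures. The difference was small and without overlap of the genotypes (log2FC -0.30 ± 0.07, edgeR adjusted p = 0.0661). The Prrx1 gene overlaps 1 annotated plus-strand gene. Dlx5, a factor of jaw and bone, had 0.544, 0.668 and 0.510 CPM in WT and 0.135, 0.420 and 0.239 CPM in Nipbl+/- cultures, which are 3 to 15 reads each (log2 fold change -1.07, standard error 0.43, adjusted p = 0.262). In the craniofacial and neural crest list, 19 of 37 genes are on the minus strand and 14 were tested. Alx1 rose and 0 fell, 7.14% of the 14, against 1.95% of all tested genes. Of the 14, 5 had a log2 fold change above 0, as did 4386 of all 9061 tested genes, and the median was -0.14. Six2 and Six4, which act with Eya cofactors, had log2FC of -0.14 and 0.08 with the genotypes overlapping.

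In the cartilage and bone list, 12 genes were tested, 0 passed the threshold by the quasi-likelihood test of edgeR, and the median was 0.08. Unadjusted p-values under 0.05 were found for 6 of the 12 and for 16.9% of all tested genes. The SoxC factors, which keep progenitors alive in mesenchyme and nerve, were all tested and none passed. Sox11 had 12.5, 13.6 and 12.1 CPM in WT and 21.2, 23.9 and 16.0 CPM in Nipbl+/- cultures (log2FC 0.68 ± 0.14, edgeR adjusted p = 0.0554). Sox12 had 5.49, 5.34 and 5.89 CPM in WT and 6.63, 6.76 and 7.02 CPM in Nipbl+/- cultures (log2FC 0.29, adjusted p = 0.274). Sox4, the most abundant, overlapped between the genotypes at 170 to 185 and 165 to 195 CPM (log2FC 0.03 ± 0.07). Runx1 and Runx2, the latter required for bone formation, had log2 fold changes of 0.04 and 0.12 with overlapping genotypes.

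Neural and sensory factors held Gata3 and Zic1 at opposite ends. Zic1, a zinc finger factor of dorsal neural tube and dorsal somites, had 11.3, 12.4 and 7.98 CPM in WT and 17.3, 16.5 and 15.3 CPM in Nipbl+/- cultures, all above WT (log2FC 0.63 ± 0.16, edgeR adjusted p = 0.0837). It overlaps its plus-strand neighbour Zic4. Of the 40 genes of this list, 17 are on the minus strand and 8 were tested. Of these 8, 0 rose and 1 fell (12.5%, against 1.95% of all tested genes), with a median of -0.23. Among 5 tested heart, gut and visceral factors 0 passed in edgeR's quasi-likelihood test, and the median was -0.08. An unadjusted p-value under 0.05 was found for 1 of the 5 (16.9% of all tested genes). That gene, Tbx20 of the heart, had 5.17, 4.09 and 4.73 CPM in WT and 3.43, 2.71 and 3.63 CPM in Nipbl+/- cultures (log2FC -0.52, adjusted p = 0.176).

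The list of broadly expressed Klf and Fox factors had 12 tested members. Of these, 0 passed by the quasi-likelihood test of edgeR, with unadjusted p-values under 0.05 for 4 (16.9% of all tested genes), and a median of 0.08. Klf13 and Klf16 had log2 fold changes of 0.01 and 0.05, each with a standard error of 0.05 to 0.06, and Foxp1, Foxo3 and Foxs1 lay between 0.20 and 0.25. Klf4, a zinc finger factor of growth arrest and pluripotency, was the exception in size. It had 46.7, 47.9 and 45.6 CPM in WT and 28.9, 29.4 and 43.1 CPM in Nipbl+/- cultures, with Nipbl+/- replicate 3 close to WT (log2FC -0.47 ± 0.14, edgeR adjusted p = 0.141). Without that culture the log2 fold change was -0.68 and the adjusted p-value 0.0113.

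The proteins that these factors work with were read from a list of 40 partners and cofactors, 22 of them on the minus strand and 21 tested. Id2 rose and Dach1 fell, 9.52% of the 21, against 1.95% of all tested genes. The list median was 0.04, and 14 of the 21 had a log2 fold change above 0, as did 4386 of all 9061 tested genes. Id2, an inhibitor of basic helix-loop-helix factors, had 23.4, 22.2 and 22.7 CPM in WT and 32.5, 32.5 and 37.6 CPM in Nipbl+/- cultures (log2FC 0.58 ± 0.08, edgeR adjusted p = 0.0213). Dach1, a corepressor that acts with Eya proteins, had 8.98, 8.23 and 9.51 CPM against 6.31, 5.54 and 5.59 CPM (log2FC -0.62 ± 0.12, edgeR adjusted p = 0.0469). Of the 6 fits that leave out a culture, Id2 passed in 3 and Dach1 in 1. Neither gene overlapped between genotypes, and the LIM cofactors Ldb1 and Ldb2 had 0.05 and 0.04.

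Several factors were uneven among cultures of the same genotype. Pitx1, the homeodomain factor that marks the hindlimb, had 11.2, 9.52 and 14.1 CPM in WT and 13.2 and 11.9 CPM in Nipbl+/- replicates 2 and 3, but 1.13 CPM (25 reads) in Nipbl+/- replicate 1. That culture was 8.45-fold below the next lowest, the widest such gap among the 66 factors. The log2 fold change between genotypes of -0.40 (edgeR adjusted p = 0.790) turned to 0.11 without Nipbl+/- replicate 1. Tbx4, the hindlimb T-box factor, is on the plus strand.

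WT replicate 2 was the lowest of the 6 cultures for 22 of the 66 factors (33.3%) and for 18.0% of all tested genes. Such ranks leave out the gap to the next lowest culture, which was 1.001-fold for Foxp1, 1.03-fold for Sox12 and 2.38-fold for Sox6. Sox6, which with Sox5 drives cartilage formation, had 9.71 and 10.1 CPM in WT replicates 1 and 3, 2.54 CPM in WT replicate 2 and 6.04 to 7.78 CPM in Nipbl+/- cultures. Sox5, Runx2 and Nkx3-2, a factor of the early sclerotome, were also lowest in WT replicate 2, as was the cartilage collagen gene Col2a1, at 119 CPM against 255 to 472 CPM in the other cultures. In the cartilage and bone list, 6 of the 12 tested factors were lowest of all cultures there, while 5 (Dlx5, Prrx1, Runx1, Shox2 and Sox11) had their highest WT value in that culture. Of the limb and body wall list, Sall1, Irx3 and Lhx9, limb bud factors, had their lowest WT value there too. Meis1 and Shox2 of that list had their highest WT value there, and Pbx3 lay in the middle. The first of these genes were picked after their values were seen, and the whole list was not counted. Whether cartilage cells account for these levels was not tested, and Col2a1 was the only one of 2 minus-strand cartilage markers with counts. Within the genotype comparison, Sox6 overlapped (log2FC -0.13, adjusted p = 0.912), and without WT replicate 2 the log2FC was -0.54 (edgeR adjusted p = 0.102).

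**Figure D4:**
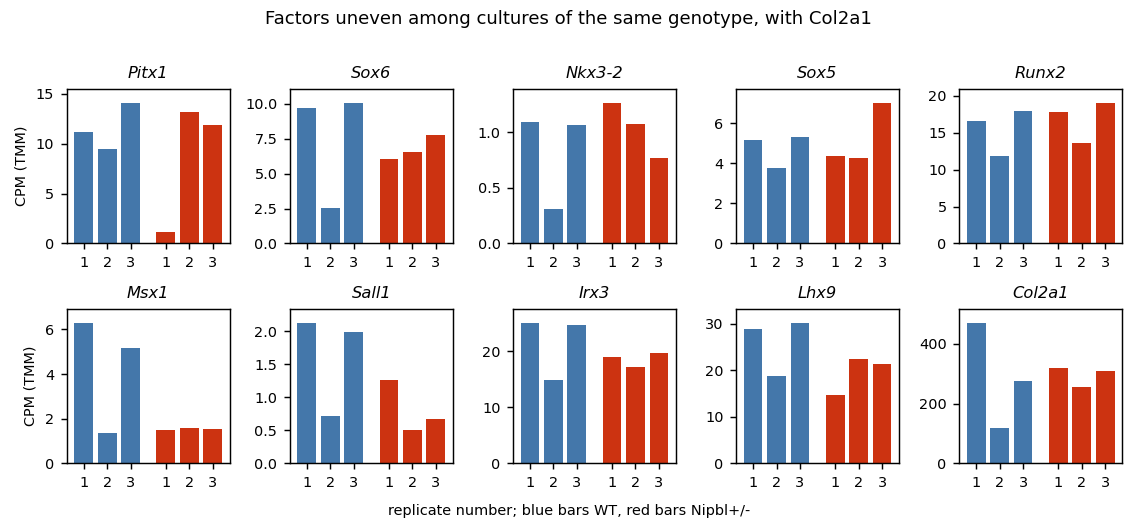
CPM after TMM normalization (vertical axis of each panel, from 0) in each culture, with WT replicates 1 to 3 in blue and Nipbl+/- replicates 1 to 3 in red. Pitx1 was near 1 CPM in Nipbl+/- replicate 1 only, while Sox6, Nkx3-2, Sox5, Runx2, Msx1, Sall1, Irx3, Lhx9 and Col2a1 each had their lowest WT bar in replicate 2.

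Markers of macrophages, cells that MEF cultures can hold, were counted beside the factors. All 12 tested macrophage markers had a positive log2FC, with a median of 1.04, and their summed level was 61.7 to 81.7 CPM in WT and 98.4 to 197 CPM in Nipbl+/- cultures. By the quasi-likelihood test of edgeR 0 of the 12 passed the threshold, while 11 lay under 0.05 before adjustment. Of all 9061 tested genes, 16.9% lay under 0.05 before adjustment and 4386 had a positive log2FC. The part that macrophages play in the called factors was not tested. Summed endothelial markers had 72.5 to 105 CPM in WT and 72.3 to 95.4 CPM in Nipbl+/- cultures, skeletal muscle markers 249 to 353 and 304 to 350 CPM, and epithelial markers 14.6 to 16.1 and 11.5 to 14.1 CPM. Neural and glial markers stood at 2.13 to 2.71 and 2.75 to 3.44 CPM. Of the endothelial, muscle, epithelial and neural markers tested, 0 of 4, 0 of 5, 0 of 3 and 0 of 2 passed the threshold in edgeR's quasi-likelihood test, with 0, 0, 2 and 1 at an unadjusted p-value under 0.05. The 2 epithelial markers, Krt19 and Krt8, went opposite ways. Krt19 made up most of the epithelial sum, with means of 13.8 CPM in WT and 10.4 CPM in Nipbl+/- cultures (log2FC -0.41). Krt8 and Cldn4 had log2FC of 1.48 and 0.75, at means of 0.378 to 1.17 CPM.

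With edgeR's exact test, 10 of the 66 factors (15.2%) passed an adjusted p-value under 0.05, 5 higher and 5 lower, beside 4.76% of all tested genes (2.41% higher and 2.35% lower). Added to the 4 genes above were Sox11 and Zic1 on the higher side and Lmx1b, Msx2, Prrx1 and Tbx18 on the lower side. DESeq2 passed these 10 and also Msx1 and Klf4, together 12 of 66 (18.2%), 5 higher and 7 lower. Of all tested genes DESeq2 passed 4.96%, 2.62% higher and 2.34% lower.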

How the data were processed

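Sequenced were 3 WT and 3 Nipbl+/- cultures, grouped by their labels. After rRNA depletion, reads were mapped by the authors with TopHat 2.0.10 (mm10, Ensembl 72), who deposited raw counts and RPKM values for each gene; the counting tool is not given in the sources used here. The deposited RPKM values were used only for levels between genes. Members, gene lists and tests were chosen with earlier results of these data known.

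Counts were filtered with filterByExpr (minimum count 10), normalized by TMM and fitted without covariates in edgeR 4.0.16 (R 4.3.3, quasi-likelihood F-test), with Benjamini-Hochberg adjustment over all 9061 tested genes and a threshold of 0.05. The standard error is the size of the log2FC divided by the root of F. Replicates of a genotype differed by more than sampling noise (chi-square per degree of freedom 10.1 to 34.6), so the number of cultures limits precision. Alternatives were edgeR's exact test, DESeq2 1.42.0, other normalizations and filters, the replicate number as a block, the sex of each culture read from Xist and Ddx3y counts as a covariate (Xist exceeded Ddx3y in 1 WT and 2 Nipbl+/- cultures), and each culture left out. On simulated counts with 2-fold changes, 157 of 198 changes were found among 8968 genes, beside 8 false calls. The changed genes were drawn at random from all tested genes. The share found was not read for the factors alone, whose median standard error was larger (0.162 against 0.101). Smaller changes, such as the 1.51-fold of Meis1 and 1.56-fold of Meis2, were not simulated.

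Genes named are all factors past the threshold, the 15 with the largest change among those with an unadjusted p-value under 0.05 and no overlap between genotypes, the factor with the highest RPKM in each family, apart from a few factors that are not reported here by name and were not drawn, and the 10 highest in RPKM; other tested factors are given by value only. Msx1, Lhx8, Pitx1, Sall1, Sox6 and other genes uneven among cultures, and the motifs, were chosen after their values were seen. Promoter sequences are those of RefSeq.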

Additional observations from a re-analysis of the deposited data

How the results depend on the processing

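In the whole table, 94 genes were higher and 83 lower; the counts were 218 and 213 with edgeR's exact test, 237 and 212 with DESeq2, 173 and 152 with no filter on low counts, and 34 and 52 with the replicate block, and with library size alone 142 were higher. With a culture left out, between 1 and 130 were higher and between 2 and 138 lower. Of the developmental factors, 3 higher and 1 lower became 5 and 5 with the exact test, 5 and 7 with DESeq2, and 5 and 5 with no filter; 0 were lower with the replicate block, and a left-out culture gave 0 to 4 higher and 0 to 5 lower. Their median log2 fold change of -0.01 lay between -0.0535 and 0.0573 with a culture left out. The log2 fold change of Nipbl lay between -0.47 and -0.39 in those fits, and 3 of the 6 passed the threshold. Pitx1 turned to 0.11 without Nipbl+/- replicate 1 (lowest -0.84, without Nipbl+/- replicate 2), and Sox6 to 0.028 with the replicate block, 0.11 without WT replicate 1 and 0.15 without WT replicate 3 (lowest -0.54, without WT replicate 2). The 4 called factors kept their direction under every alternative run. With the replicate number as block term, edgeR adjusted p-values were 0.0615 for Gata3 and 0.0931 for Dach1, and Meis1, Meis2 and Alx1 stayed past the threshold. Of the cell type markers, which had no call without it, C1qb of macrophages (0.0392) and Col6a2 of fibroblasts (0.0191) passed with the block, and C1qa, Col6a1 and Col6a2 each passed in 1 of the 6 fits with a culture left out. The numbers do not show a pairing: deviations from the genotype means correlated at -0.14 to -0.04 between cultures of the same number. The 4 called factors stayed past the threshold with the sex covariate and under each of the other scalings. The cause of these shifts was not tested. With 3 cultures a side, a factor that did not pass is not shown to be alike in the genotypes.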

Other observations

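Among factors with too few reads to be tested, Lhx8, a LIM homeodomain factor of the developing jaw and forebrain, had 50, 5 and 6 reads in the WT cultures, the first far above the rest, and 7, 9 and 21 reads in the Nipbl+/- cultures. Barx2, the only Barx gene on the minus strand, had 5, 1 and 7 reads in WT and 1, 4 and 10 in Nipbl+/- cultures.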
